A study of Mus musculus with 6 samples.

Results

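The cytosolic and endosomal nucleic acid sensors are described here by 10 genes, taken by the gene name on the array: Mb21d1 (cGAS), Tmem173 (STING), Ddx58 (RIG-I), Ifih1 (MDA5), Mavs, Tlr3, Tlr7, Tlr9, Zbp1 and Aim2. They are 10 of the 27248 gene names on the array, and 20 of its 56605 probes carry their names. They were measured in LSK cells from C57BL/6 mice at postnatal days 6 to 8. LSK cells are bone marrow cells without lineage markers that carry Sca-1 and c-Kit, a gate that contains the haematopoietic stem cells. The 3 control samples had 2 wild-type Atg5 alleles (Atg5w/w;VaviCre+) and the 3 Atg5f/f;Vav samples had 2 floxed alleles (Atg5f/f;VaviCre+), so both groups carried Vav-iCre, which is driven in haematopoietic cells and leaves Atg5 in other cell types. The comparison asks how the transcripts of LSK cells differ when this autophagy gene is deleted in blood cells before birth. Each sample was read on 1 array with a single dye, and the sources used here do not say whether a sample was 1 mouse or a pool, so that n, SD and p-values refer to arrays.

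Cells detect misplaced or foreign nucleic acid in separate compartments. In the cytosol, cGAS binds double-stranded DNA and makes a cyclic dinucleotide that activates STING, RIG-I and MDA5 bind double-stranded RNA and signal through MAVS, AIM2 binds DNA and assembles an inflammasome, and ZBP1 binds left-handed Z-form nucleic acid and engages RIPK3 in cell death. In endosomes, TLR3 recognises double-stranded RNA, TLR7 single-stranded RNA and TLR9 unmethylated CpG DNA. Most of these routes end in type I interferon, and the genes of several sensors are themselves raised by interferon.

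Values are log2 signal relative to the 75th percentile of the same array, differences are Atg5f/f;Vav minus control, and a probe passed where its limma adjusted p (Benjamini-Hochberg over 32074 probes) was at or under 0.05. A gene is represented by its tested probe with the highest mean signal. Levels of different probes are not compared with each other, because probes bind with different strength. In bulk samples, fewer cells that express a gene and less RNA per cell cannot be told apart.

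All 10 sensors were measured well enough to be tested. Zbp1, Ifih1 and Ddx58 were higher in Atg5f/f;Vav LSK cells, by 18.4-fold, 2.38-fold and 1.49-fold, and no sensor passed the test as lower. The 3 sensors that passed stand beside a background of 34.5% of 16090 genes that passed in either direction, 20.1% as higher and 14.4% as lower. Control and Atg5f/f;Vav values were fully separated for 8 sensors, beside 57.2% of all genes tested. The median difference was 0.26 over the 10 sensors and -0.01 over all genes tested. Of the 18 sensor probes tested, 4 passed, all of them higher, beside 34.4% of all probes in either direction, 17.3% higher and 17.1% lower. Among the 4 is the Zbp1 probe at base 1783, which entered the test only through the Atg5f/f;Vav arrays. Its place in the count is not separate support.

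The 8 probes of Zbp1, Ifih1 and Ddx58 are shown first, because the probes of the latter genes gave different answers. The first 30 of the 60 bases of each are given as the array design holds them, in the direction of the transcript. Their names give the first transcript base matched, and their positions are on the minus strand of mm9.
Zbp1 base 651 (chr2:173039307-173039366): caagctggtcttgaacccacagagatcttc
Zbp1 base 1783 (chr2:173032258-173032317): acagatgtgacatgaaagtacatgtaacac
Ifih1 base 3688 (chr2:62435621-62435680): gatctcgggctacataaaattaagaaaact
Ifih1 base 2838 (chr2:62446313-62446372): ttgccatgctttcttgtcttaacttttaca
Ddx58 base 3800 (chr4:40151893-40151952): gttgaaattaaaatctttcaccatgcctgg
Ddx58 base 2251 (chr4:40156918-40156977): ctgagtgcaatctcgtcattctctatgagt
Ddx58 base 1146 (chr4:40170969-40171028): gaagacaatgatatcatcatcctgacaccc
Ddx58 base 492 (chr4:40176528-40176587): gatatcctttctgaactatccgaatgtttg

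The proximal promoters were searched for 2 interferon-type motifs in RefSeq windows (GRCm38.p6) that run from 250 bases before the annotated start to 50 after it. Windows were matched for Mb21d1 (under Cgas), Ddx58, Ifih1, Mavs, Tlr3, Tlr9 and Aim2. The core of the interferon-stimulated response element (GAAANNGAAA, both strands) is bound by interferon-activated factors of the STAT and IRF families, and the gamma-activated sequence (TTCNNNGAA, a palindrome) by STAT dimers. The first was found in the windows of Ddx58 and Ifih1, where 3.44% of all 32851 windows hold it. The second was found in none of the 7, where 8.3% of all windows hold it. In the stretches below, capitals mark the match, which covers transcript bases 3 to 12 of Ddx58, on the opposite strand, and 33 to 42 of Ifih1.
Ddx58 (chr4:40239806-40239885, minus strand): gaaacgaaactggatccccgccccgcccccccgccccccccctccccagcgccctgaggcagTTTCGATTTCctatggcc
Ifih1 (chr2:62646206-62646233, minus strand): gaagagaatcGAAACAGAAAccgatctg
Of the genes that hold the match, Ddx58 passed as higher at base 3800 only and Ifih1 at base 3688 only. The other 5 genes with a window did not pass. No window was matched for Zbp1, Tmem173 or Tlr7, so the sensor with the largest rise was not searched. Whether the motif bears on the values was not tested. A match of letters is a description of the window and not of binding.

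**Figure D1:**
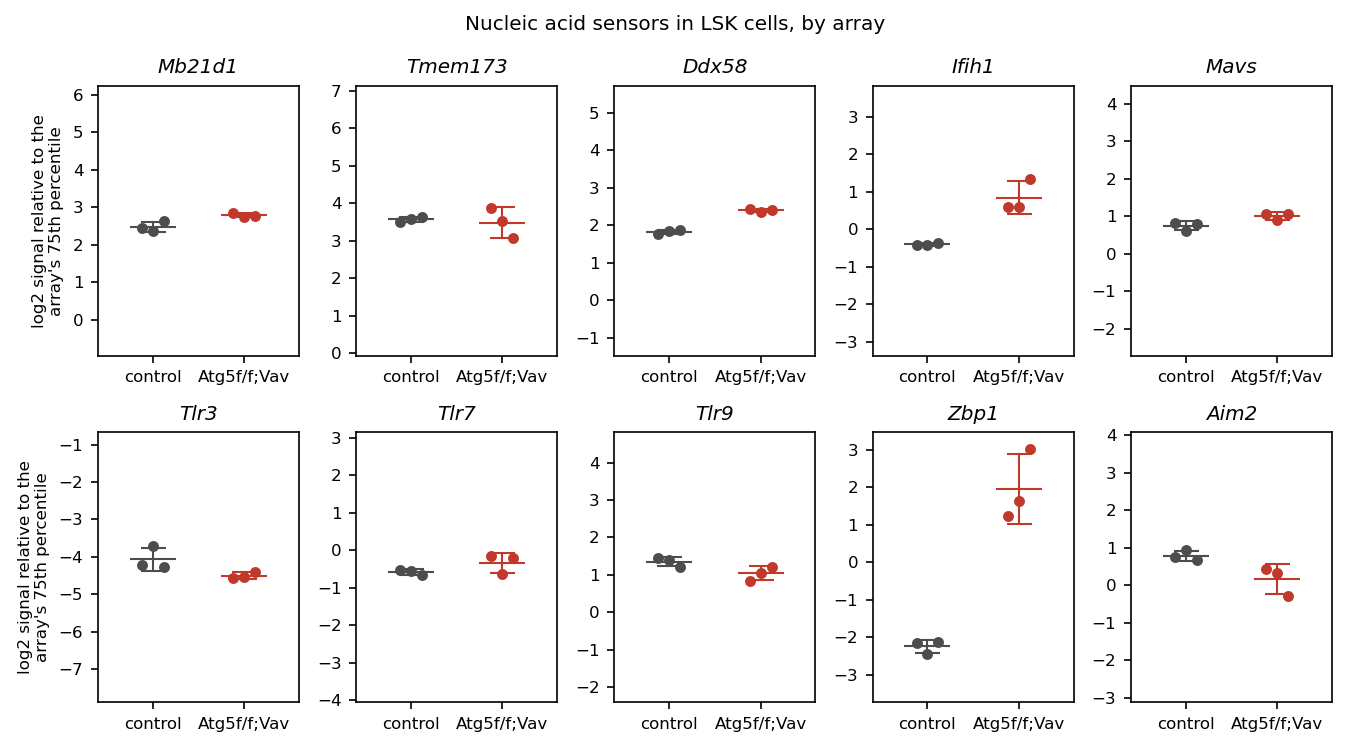
Log2 signal relative to the 75th percentile of the array (vertical axis, the same span in every panel) for the representing probe of each sensor, in control and Atg5f/f;Vav LSK cells; points are arrays, bars are the mean and SD of 3 arrays. Zbp1 lies between -2.44 and -2.12 in the controls and between 1.24 and 3.02 in Atg5f/f;Vav, while the groups of Tmem173 and Tlr7 overlap.

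Zbp1, the sensor of Z-form nucleic acid, had the largest difference among the 10. At base 651, the log2 signal was -2.15, -2.44 and -2.12 on control arrays 1 to 3 and 1.24, 1.65 and 3.02 on Atg5f/f;Vav arrays 1 to 3. Every Atg5f/f;Vav array was far above every control array, and array 3 was the highest. The difference was 4.20 (SE 0.43, adjusted p = 0.00701). The second probe, at base 1783, which the design assigns to another transcript of the gene, read -4.67, -4.37 and -5.11 against -1.05, -0.34 and 0.79. It was well above background on 1 of the 3 control arrays and on all 3 Atg5f/f;Vav arrays. This probe thus entered the test only through the group where it is high, and is not separate support. Its difference was 4.52 (SE 0.45, adjusted p = 0.00683), with array 3 again the highest. Before scaling, the intensity at base 651 was 148, 120 and 172 in the controls and 2078, 2188 and 5016 in Atg5f/f;Vav. Zbp1 passed without any single array, with a difference between 3.68, without Atg5f/f;Vav array 3, and 4.57, without Atg5f/f;Vav array 1. With background correction by normexp, the difference was 3.64 at base 651 and 2.74 at base 1783.

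Ifih1 encodes MDA5, the sensor of long double-stranded RNA. At base 3688 it read -0.41, -0.43 and -0.35 in the controls and 0.59, 0.61 and 1.35 in Atg5f/f;Vav. The controls lay close together, and array 3 of Atg5f/f;Vav was again the highest. The difference was 1.25 (SE 0.21, adjusted p = 0.0153). The second probe of Ifih1, at base 2838 of a transcript that the design takes from Ensembl and not from RefSeq, had a difference of 0.49 (adjusted p = 0.0777) and did not pass. Its groups overlapped. It passed with quantile normalisation, at 0.74 (adjusted p = 0.0299), and without Atg5f/f;Vav array 1, at 0.64 (adjusted p = 0.0376).

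Ddx58 encodes RIG-I, the sensor of short double-stranded RNA with a 5′ triphosphate. At base 3800 it read 1.76, 1.84 and 1.88 in the controls and 2.45, 2.37 and 2.41 in Atg5f/f;Vav, with SDs of 0.06 and 0.04. The groups were separated by more than their spread, and the difference was 0.58 (SE 0.10, adjusted p = 0.0154). The other 3 probes, at bases 2251, 1146 and 492, differed by 0.08, -0.12 and -0.09 with adjusted p of 0.712, 0.534 and 0.665. Their 95% intervals ran from -0.30 to 0.46, from -0.48 to 0.23 and from -0.43 to 0.26, so the rise at base 3800 lay above the upper bound of each. The mean of the 4 probes differed by 0.11 (adjusted p = 0.48). The rise of Ddx58 therefore rests on the probe nearest the 3′ end of the transcript. Ddx58 and Ifih1 also did not pass without control array 1 (adjusted p = 0.0688 and 0.0661) or without control array 2 (adjusted p = 0.0697 for both genes).

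**Figure D2:**
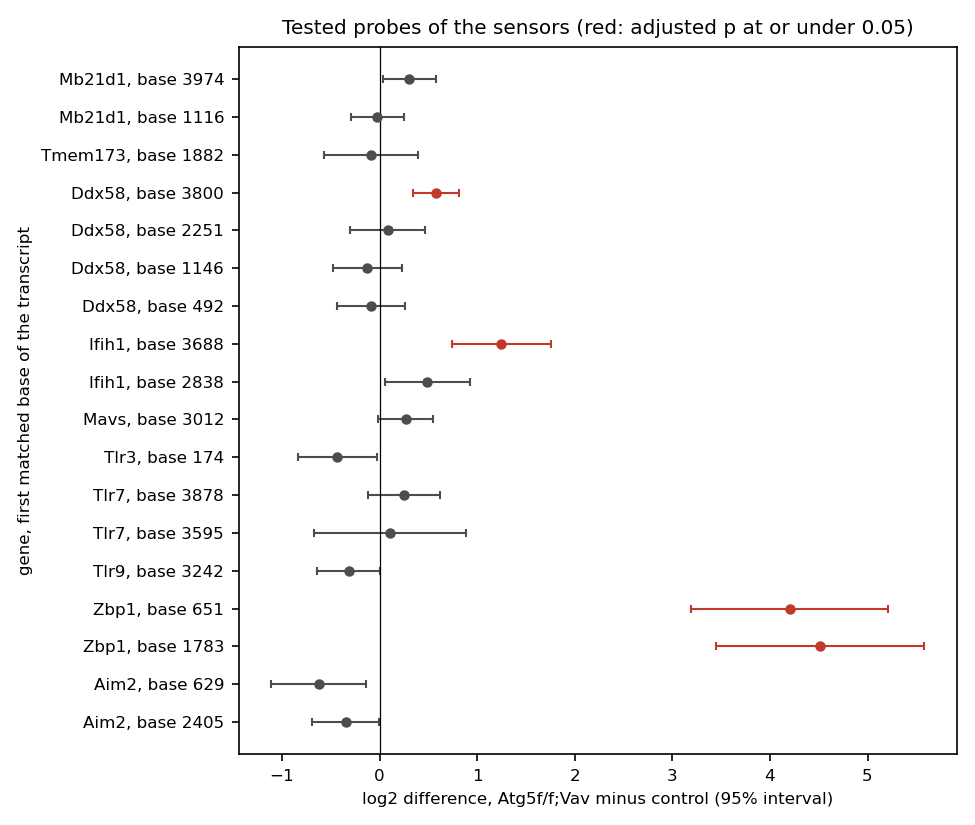
Log2 difference, Atg5f/f;Vav minus control, with its 95% interval from limma (horizontal axis) for the 18 tested probes of the sensors, each named by its first matched transcript base; red marks an adjusted p at or under 0.05. Both Zbp1 probes lie above 4, 1 of 4 Ddx58 probes and 1 of 2 Ifih1 probes passed, and the probes of the other 7 genes did not.

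The shared adaptor of RIG-I and MDA5 did not pass the test. Mavs, which sits on the outer mitochondrial membrane, read 0.82, 0.60 and 0.79 in the controls and 1.06, 0.89 and 1.06 in Atg5f/f;Vav, without overlap. Its difference was 0.27, with an interval from -0.01 to 0.54 (adjusted p = 0.116). Dhx58, which encodes LGP2, a RIG-I-like receptor that lacks the signalling domains of the others, was higher by 1.01 (SE 0.14, adjusted p = 0.0136). It read -0.16, 0.12 and -0.15 in the controls and 0.95, 0.76 and 1.13 in Atg5f/f;Vav.

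The genes of the cGAS and STING route did not pass. Mb21d1, at base 3974, read 2.44, 2.37 and 2.62 in the controls and 2.83, 2.74 and 2.77 in Atg5f/f;Vav. The groups were close and did not overlap, and the difference of 0.31 had an interval from 0.04 to 0.57 (adjusted p = 0.0728). Its second probe, at base 1116, differed by -0.03 with an interval from -0.30 to 0.24 (adjusted p = 0.875). With quantile normalisation the difference at base 3974 was 0.06. Tmem173, the adaptor that receives the cyclic dinucleotide, read 3.50, 3.58 and 3.63 in the controls and 3.87, 3.52 and 3.06 in Atg5f/f;Vav. The Atg5f/f;Vav arrays lay on both sides of the controls, and their SD was 0.41 against 0.06. The difference was -0.09, with an interval from -0.57 to 0.40 (adjusted p = 0.755), and it turned to 0.12 without Atg5f/f;Vav array 3.

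None of the endosomal receptors passed the test. Tlr9 read 1.46, 1.40 and 1.23 in the controls and 0.85, 1.06 and 1.22 in Atg5f/f;Vav, just without overlap. The difference was -0.32, with an interval from -0.64 to 0.01 (adjusted p = 0.11). Tlr7, at base 3878, read -0.53, -0.55 and -0.66 against -0.14, -0.64 and -0.21. The groups overlapped through Atg5f/f;Vav array 2, and the difference was 0.25 with an interval from -0.12 to 0.62 (adjusted p = 0.242). The probe of Tlr7 at base 3595 differed by 0.11 (adjusted p = 0.816), and another probe of the gene was not well above background on any array. Tlr3 was near the limit of detection, with a probe well above background on 3 control arrays and 1 Atg5f/f;Vav array and a second probe on none. The first read -4.21, -3.71 and -4.27 against -4.55, -4.55 and -4.39, a difference of -0.43 with an interval from -0.84 to -0.03 (adjusted p = 0.0871). It was -0.09 with quantile normalisation (adjusted p = 0.698), -0.18 with normexp (adjusted p = 0.309) and -0.26 without control array 2 (adjusted p = 0.209).

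Aim2, the DNA sensor of the inflammasome, was the sensor with the largest negative difference. At base 629 it read 0.76, 0.94 and 0.68 in the controls and 0.45, 0.33 and -0.28 in Atg5f/f;Vav. All Atg5f/f;Vav arrays were below the controls, and array 3 was the lowest. The difference of -0.62 had an interval from -1.11 to -0.14 and an adjusted p of 0.0537, just outside the threshold. Without Atg5f/f;Vav array 3 it was -0.40 (adjusted p = 0.0544). Its second probe, at base 2405, differed by -0.35 (adjusted p = 0.0999), and its groups overlapped. With the percentile taken over probes detected on all 6 arrays, which moved the median difference of all probes from -0.06 to -0.27, Aim2, Tlr9 and Tlr3 passed as lower (differences of -0.83, -0.52 and -0.64 with adjusted p of 0.0313, 0.0262 and 0.0341). Zbp1, Ifih1 and Ddx58 also passed as higher on that scale, the latter with differences of 1.04 and 0.37.

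**Figure D3:**
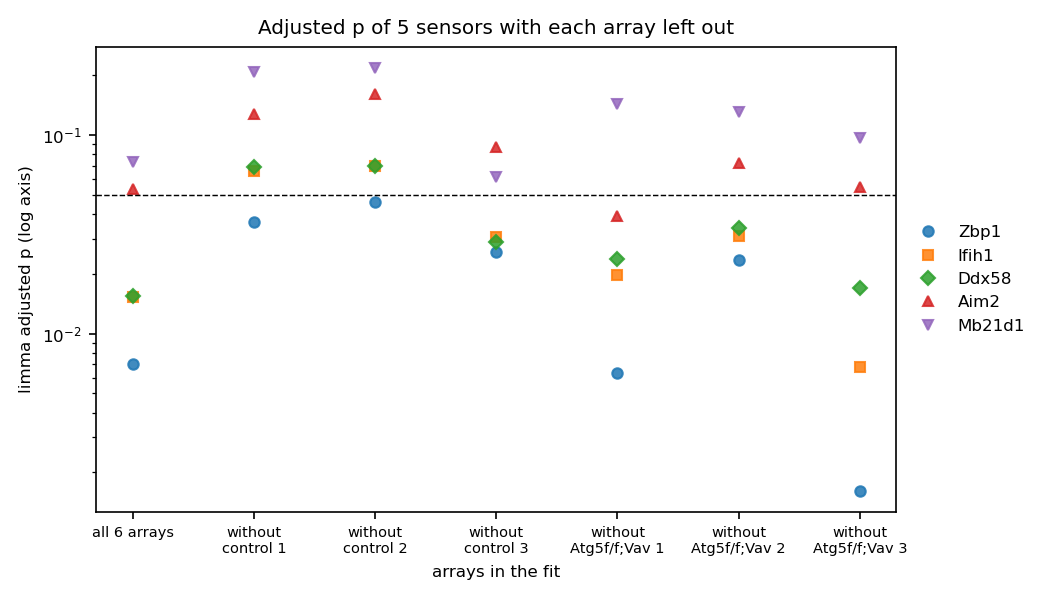
Limma adjusted p (vertical log axis, dashed line at 0.05) of the representing probe of 5 sensors, with all 6 arrays and with each array left out in turn (horizontal axis). Zbp1 stays under the line throughout, Ifih1 and Ddx58 cross it without control array 1 or 2, and Aim2 falls under it only without Atg5f/f;Vav array 1, at 0.0389.

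Array 3 of Atg5f/f;Vav had the highest value of Zbp1 and of Ifih1 and the lowest of Aim2 and Tmem173 within its group. Of the 3231 genes that passed as higher, 88.4% had their highest value on this array. Without it, Zbp1 had an adjusted p of 0.00164, Ifih1 of 0.00676 and Ddx58 of 0.0169.

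The genes around the sensors were taken from 6 lists, which name 135 genes. Of these, 130 were on the array and 113 were tested, of which 42 passed as higher and 6 as lower. Over all genes tested, 20.1% passed as higher and 14.4% as lower. Without control array 1, 10 of the 113 passed, and without control array 2, 8 passed. With the percentile over probes detected on all 6 arrays, 30 were higher and 12 lower, and 36 of the 48 genes passed in the same direction. With quantile normalisation 31 of the 48 did, and the sign of Pcbp2 turned, from 0.34 to -0.03.

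Other nucleic acid sensors were the list with the most members passing. Of 25 tested, 15 were higher and 1 lower, beside 20.1% and 14.4% of all genes, with a median difference of 0.65. The oligoadenylate synthetases, which bind double-stranded RNA, and their relatives rose: Oas3 by 1.91 (adjusted p = 0.0068), Oas1a by 1.31, Oasl2 by 1.86 and Oasl1 by 2.32. Oasl1 read 0.67, 1.06 and 1.05 in the controls and 2.95, 2.93 and 3.87 in Atg5f/f;Vav. Ifi205, a PYHIN gene of the same family as Aim2, rose by 2.46 (SE 0.50, adjusted p = 0.0178), with -3.92, -2.47 and -2.31 against -0.81, -0.87 and 0.34. Its relatives Ifi204 and Pyhin1 were higher by 0.34 and 1.03, beside the difference of -0.62 in Aim2. Ifi204 did not pass with either of those scalings. Eif2ak2, the RNA-activated kinase PKR that halts translation, was higher by 0.88.

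Among 27 adaptors and signalling genes, 6 were higher and 3 lower, shares near those over all genes (20.1% and 14.4%), and the median difference was 0.04. Irf7, the interferon-induced transcription factor that drives the interferon alpha genes, rose by 2.17 (SE 0.21, adjusted p = 0.00606), with 2.88 to 3.11 in the controls against 4.90, 4.97 and 5.63. Irf3, the constitutive factor, differed by 0.12 (adjusted p = 0.367), and Tbk1, the kinase that activates both, by -0.07 (adjusted p = 0.702). Myd88, the adaptor of TLR7 and TLR9, was higher by 0.57 (adjusted p = 0.0252), and Ticam1, the adaptor of TLR3, differed by 0.04 (adjusted p = 0.743). Tank, a scaffold of TBK1, and Chuk, an IKK kinase, were higher by 0.60 and 0.59. With the percentile over detected probes, Myd88, Tank and Chuk did not pass (adjusted p = 0.0521, 0.0527 and 0.0561). Myd88 and Chuk also did not pass with quantile normalisation (adjusted p = 0.0506 and 0.0618). Tbkbp1, Pik3ap1 and Ticam2 were lower, with differences of -0.94, -0.76 and -0.64. Ticam2 did not pass with quantile normalisation, at -0.36 (adjusted p = 0.142).

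For transport and processing of the endosomal TLRs, 4 of 15 genes were higher and none lower, with a median difference of 0.31. This is no larger a share than the 34.5% of all genes that passed in either direction. Unc93b1, which carries these receptors from the endoplasmic reticulum to endosomes, differed by 0.31 and did not pass (adjusted p = 0.0646). The genes that passed were Slc15a3, a lysosomal peptide and histidine transporter, Ctss, a cathepsin, Hsp90b1, the chaperone of TLRs, and Rab7, a late endosomal GTPase. Their differences were 0.86, 0.60, 0.51 and 0.49, and only Slc15a3 also passed with the percentile over detected probes or with quantile normalisation.

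The list for clearance of nucleic acids and restraint of their sensing also holds the solute carrier Slc19a1, which has neither role here. Of its 24 tested genes, 12 were higher and 1 lower, beside 20.1% and 14.4% of all genes, with a median difference of 0.36. Trex1, the cytosolic DNA exonuclease, rose by 0.62 (adjusted p = 0.0154), from 2.93, 2.86 and 3.02 to 3.55, 3.48 and 3.65. Adar, which edits double-stranded RNA, was higher by 0.53 (adjusted p = 0.0207, and 0.0527 with the percentile over detected probes). All 3 subunits of RNase H2, Rnaseh2a, Rnaseh2b and Rnaseh2c, were higher, by 0.53, 0.64 and 0.64, the last of which did not pass with quantile normalisation (adjusted p = 0.0683). Usp18, which restrains the interferon receptor, had the largest rise of the list at 2.71 (adjusted p = 0.00805). Enpp1, which degrades the cyclic dinucleotide of cGAS, was higher by 1.57, Slc19a1 by 1.02 and Banf1, which competes with cGAS for DNA, by 0.84. Pld3, an exonuclease that limits TLR9 ligands, was the gene that was lower, with a difference of -0.71.

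Among 12 partners of AIM2 and ZBP1, 3 were higher and none lower, a share near the 20.1% of all genes that were higher, and the median difference was 0.30. Casp1 and Pycard, the protease and the adaptor of the inflammasome, were higher by 1.01 and 0.54, but did not pass with quantile normalisation (adjusted p = 0.0664 and 0.09). Mlkl, the executioner of necroptosis, was higher by 0.80 (adjusted p = 0.0145). Ripk3, the kinase through which ZBP1 acts, differed by 0.25 and did not pass (adjusted p = 0.119). Il1b and Nlrp3 were not well above background on any array.

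Of 22 interferon and cytokine ligands on the array, 11 were not well above background on any array, among them Ifnb1 and Ifng. Of 10 tested, 2 were higher and 1 lower, shares near those over all genes (20.1% and 14.4%), with a median difference of -0.13. Il6, a cytokine of the acute response, was well above background on none of the control arrays and all 3 Atg5f/f;Vav arrays. It entered the test only through the group where it is high, so its place in the count is not separate support. Only a bound can be given: it was at least 1.79-fold higher, taking on each control array the lowest signal of a probe well above background. Ccl5, a chemokine, rose by 1.26 (adjusted p = 0.0152). Ifnab, an interferon alpha gene of a family whose members share sequence, so that a probe may read several, was lower with a difference of -0.50, and did not pass with quantile normalisation or normexp (adjusted p = 0.36 and 0.107).

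**Figure D4:**
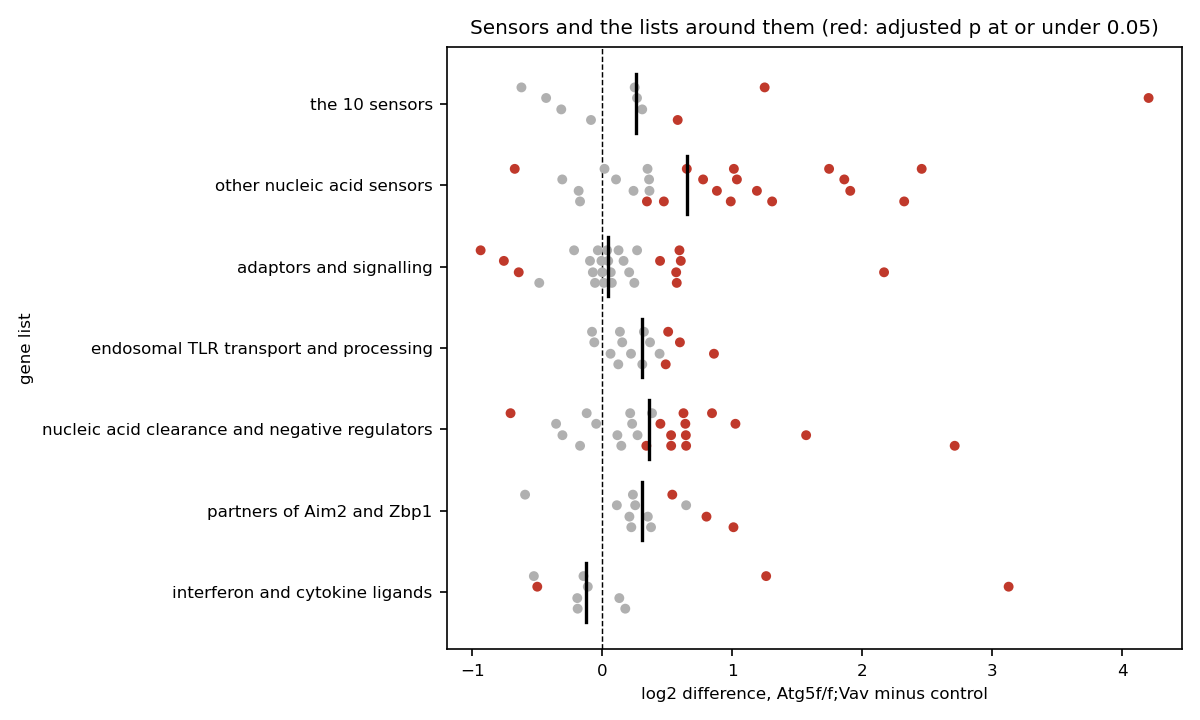
Log2 difference, Atg5f/f;Vav minus control (horizontal axis), of each tested gene of the 10 sensors and of the 6 lists around them; red points have a limma adjusted p at or under 0.05, black bars are list medians and the dashed line is the median over all genes tested. The list medians run from -0.13 for the ligands to 0.65 for the other sensors.

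Several features of the arrays differed between the groups, though not every marker sum did. The Atg5 probe (chr10:44083997-44084056, mm9) read 0.93 to 1.10 in the controls and 1.46 to 1.74 in Atg5f/f;Vav, and since the part that the floxed allele loses is not given in the sources used here, it does not check the labels. All control arrays were in 1 row of the slide and all Atg5f/f;Vav arrays in the other, so that row and genotype cannot be told apart. The share of spots well above background was 59.4% to 59.9% in the controls and 53.6% to 56.7% in Atg5f/f;Vav. Counts of markers that passed stand beside 20.1% of all genes that were higher and 14.4% that were lower. Among marker lists, the summed signal (in multiples of the 75th percentile) of 12 erythroid genes was 569.98 to 1227 in the controls and 217 to 278 in Atg5f/f;Vav, with 7 lower, led by Slc4a1 (-2.29), and 3 higher, led by Car1 (3.80). Neutrophil markers were lower for 7, led by Retnlg (-2.12), and higher for 2 of 12, while their sums overlapped (174 to 275 against 213 to 266). Stromal and endothelial markers were lower for 5 of 10 tested (15.1 to 45.3 against 9.79 to 11.9). The largest difference was in Col1a1, which read -4.14, 3.23 and 2.95 on control arrays 1 to 3 and -5.23, -5.16 and -5.49 in Atg5f/f;Vav. Its signal was thus high on control arrays 2 and 3 only. Among 14 LSK genes, all of them well above background on all 6 arrays, 1 was higher, Ly6a (1.57), which encodes Sca-1, and 5 were lower, led by Mecom (-1.75), Hlf (-1.65) and Procr (-1.56); the sums were 194 to 203 against 124 to 194. Their part in the results was not tested.

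Cell types that express sensors strongly were looked at in the same way, again beside 20.1% of all genes higher and 14.4% lower. Several of the counts below are near those shares. For plasmacytoid dendritic cells, 3 of 10 tested markers were higher, Irf8 (1.49), Bst2 (1.23) and Cox6a2 (1.15), and 1 was lower, Ccr9 (-1.37). The defining surface marker Siglech was well above background on all 6 arrays and differed by -0.14 (adjusted p = 0.435), Klk1 and Klk1b27 were not well above background on any array, and the sums were 168 to 199 in the controls and 168 to 194 in Atg5f/f;Vav. Most of that sum is the representing probe of Siglech (log2 7.10 to 7.39 in the controls, 6.97 to 7.24 in Atg5f/f;Vav). Siglech had 2 tested probes, of which only this 1 is given here. The sum therefore says little of the other markers. For macrophages and monocytes, 2 of 9 were higher, Ccr2 (0.97) and Ly6c2 (0.56), and 1 was lower, Cd5l (-1.95), with sums of 20.5 to 23.6 against 29.3 to 33.1. Mrc1 and Cd163 were not well above background on any array. For conventional dendritic cells, none of 7 passed (limma; sums 3.23 to 3.89 against 3.91 to 4.52), and Xcr1 and Cd209a were not well above background. Clec9a and Batf3, each well above background on 2 of the 3 control arrays, differed by 1.94 and 1.55 (adjusted p = 0.0986 and 0.102). Their groups did not overlap, while those of the other tested markers did. B cell markers had 1 higher, Cd79a (0.95), and 1 lower, Cd22 (-0.59), of 10 (11.0 to 14.9 against 13.1 to 22.3), and Blk was not well above background. T and NK cell markers had 1 higher of 8, Gzmb, at least 11.7-fold (11.97 to 16.1 against 13.97 to 17.6), while Cd3g, Cd8a and Ncr1 were not well above background on any array. Gzmb was well above background only on the 3 Atg5f/f;Vav arrays and entered the test through them alone, so its count is not separate support. Whether any of these cells contributed to the sensors' values was not tested.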

How the data were processed

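RNA of 3 control and 3 Atg5f/f;Vav LSK samples was read on Agilent arrays of 1 colour, whose 60-mer probes were placed on the mm9 build. The authors deposited the scanner intensity of each spot from Agilent Feature Extraction 12.0.3.1, with the background subtracted and spatial trends removed, and a value table. The deposited signal in that table equals the intensity over the array's 75th percentile of all 62976 spots. From the intensity, log2 was taken and the 75th percentile of the array over 59305 non-control spots was subtracted. Outlier-flagged spots were dropped, and spots of a probe were averaged. A probe entered the test if 3 or more of the 6 arrays called it well above background. The test was limma 3.58.1 (lmFit and eBayes, R 4.3.3, 2-sided), with Benjamini-Hochberg adjustment over 32074 probes and a threshold of 0.05. Array depth cannot be counted, and the number of arrays limits the precision. The 75th percentile of intensity was 652 to 746 in the controls and 620 to 881 in Atg5f/f;Vav.

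Groups came from the sample labels. All probes of the 10 sensors are given. From the 6 lists, the text names fixed key genes and up to 4 genes each way with the largest change past the threshold, and from the 9 marker lists (LSK, plasmacytoid dendritic cell, macrophage and monocyte, conventional dendritic cell, B cell, T and NK cell, neutrophil, erythroid, stromal and endothelial) up to 3 with the largest change and the defining markers not above background. Eif2ak2, Oas1a, Ifi204, Pyhin1, Rnaseh2a, Rnaseh2b, Rnaseh2c, Pcbp2, Ripk3, Il1b, Nlrp3 and Ifng were chosen after their values were seen. So were the markers Mpo, Ly6g, Clec9a and Batf3. A few list members counted here are not reported by name. The sensors and lists were chosen with earlier results of these data known. The alternatives are those of the closing section. Steps were tested on simulated data. Promoter windows are RefSeq sequences. Figures were drawn with matplotlib.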

Additional observations from a re-analysis of the deposited data

How the results depend on the processing

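The counts of sensors, of genes in the 6 lists, of all genes and of all probes that passed were 3, 48, 5551 and 11024. Leaving out each array in turn, the difference of Tmem173 ran from -0.28 to 0.12, turning positive without Atg5f/f;Vav replicate 3 (adjusted p = 0.515). With the percentile taken only over detected probes, 6 sensors passed, 3 of them lower, and 30.3% of the genes that passed were higher, against 58.2% otherwise. With an intensity trend in eBayes, 5 sensors passed, Mb21d1 (adjusted p = 0.0412) and Aim2 (adjusted p = 0.0318) among them. With no filter on dim probes, 3 sensors, 22 list genes, 1904 genes and 4538 probes passed, over more probes. The methods' t-test with Benjamini-Hochberg adjustment called 0 of each, with adjusted p of 0.0506, 0.0566 and 0.0534 for Ddx58, Ifih1 and Zbp1, and at its unadjusted threshold 5 sensors, 60 list genes, 6935 genes and 13541 probes. Leaving out each array in turn gave 1 to 4 sensors, 8 to 45 list genes, 128 to 5352 genes and 251 to 10304 probes. The lowest counts came without control replicate 1 (1, 10, 169 and 330) or 2 (1, 8, 128 and 251), and the cause was not tested. Zbp1 passed under every limma setting run.

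Replicate numbers are shared by the labels, and the deviations of same-numbered arrays had r of -0.07, 0.19 and 0.11. Arrays with different numbers had r from -0.30 to 0.13. Deviations from the mean of 3 arrays cannot decide whether the numbers pair the samples. With the replicate number as a block, 4 sensors, 44 list genes, 5128 genes and 10173 probes passed, Aim2 being the sensor added (adjusted p = 0.0474). Aim2 also passed with normexp (adjusted p = 0.0242), with a filter on all 6 arrays (0.0397) and without Atg5f/f;Vav replicate 1 (0.0389). No fit with slide or scan as a block was possible, since there was 1 slide and 1 scan. Signal over background limits Tlr3 and the ligands most.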
